A study of Mus musculus with 11 samples.

Results

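The IL-20 receptor and STAT3 axis is described here through 9 genes of the 24421 listed in the count tables: the cytokine Il24, the receptor subunits Il20ra, Il20rb, Il22ra1, Il10rb, Osmr and Il6st, the transcription factor Stat3 and the feedback inhibitor Socs3. The 9 genes were chosen with the measured counts of these same RNA-seq libraries, and the peaks near them, already in view, so their levels and differences are given as a description and nothing is read from their tests. IL-24 is a secreted cytokine of the IL-10 family that binds receptors built from a pair of subunits, either IL-20RA with IL-20RB or IL-22RA1 with IL-20RB. In keratinocytes these receptors act through Janus kinases to phosphorylate STAT3, which enters the nucleus and switches on genes that include Socs3, whose product shuts the signal down. Oncostatin M and IL-6 reach the same transcription factor through gp130, the product of Il6st, and the axis is known in skin for wound repair and for epidermal thickening in psoriasis.

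The study sorted epidermal keratinocytes from C57BL/6J mice, C57BL/6 in the labels, to ask how GRHL3, an epithelial transcription factor, shapes the migrating wound front. WT mice carried Krt14-Cre alone, and Grhl3-cKO mice carried Krt14-Cre with floxed Grhl3, so that deletion was limited to cells with Krt14 promoter activity. Littermates of both sexes were 8 weeks old, the wounded cells came from the margin of 4 mm back-skin punch wounds on day 3, and the unwounded cells came from distal skin. RNA-seq covered 2 WT unwounded, 2 WT wounded, 1 Grhl3-cKO unwounded and 2 Grhl3-cKO wounded libraries, and ATAC-seq, which marks open chromatin by where a transposase cuts, covered 1 library of each condition. Sorting kept cells positive for CD49F and removed those positive for CD45, CD31 or TER119. Each ATAC-seq sample pooled tissue of 2 mice. For RNA-seq neither the labels nor the text of the study ties each library to a mouse, so standard errors refer to libraries only. They come from a fit that shares the spread over all 7 libraries and across genes.

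Counts on genes per library ranged from 13497283 to 16807451. Levels are given in CPM, the count of a gene scaled to the library's total over all genes listed. Grhl3 itself had 1893 and 1398 counts in the WT unwounded libraries, 1831 and 1388 in the WT wounded libraries, 1029 in the Grhl3-cKO unwounded library, and 1765 and 1491 in the Grhl3-cKO wounded libraries. The genotypes overlapped in these counts over the whole gene, which do not resolve the region between the loxP sites. The study checked the deletion by qPCR of that region and by staining wound fronts for GRHL3 protein. Libraries are named by their labels throughout. The Grhl3-cKO unwounded library had 14854 counts of Xist and 0 of Ddx3y, Uty, Eif2s3y and Kdm5d, the pattern of female cells. The other 6 libraries had between 3 and 32 counts of Xist and at least 1368 of Ddx3y, so sex, genotype and wounding cannot be told apart in any comparison that rests on that library.

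Il24, the ligand, had 59 and 41 counts in the WT unwounded libraries, 156 and 229 in the WT wounded libraries, 6 in the Grhl3-cKO unwounded library, and 158 and 151 in the Grhl3-cKO wounded libraries. In CPM these were 3.81 and 2.44, then 9.37 and 14.9, then 0.445, then 10.4 and 10.6. All 4 wounded libraries lay above all 3 unwounded libraries, and the wounded libraries of the 2 genotypes overlapped. The WT mean was 3.12 ± 0.969 CPM (SD, n = 2) unwounded and 12.1 ± 3.88 CPM (SD, n = 2) wounded, a log2 fold change of 1.98 ± 0.44 (SE). Against the lone Grhl3-cKO unwounded library the mean difference of the Grhl3-cKO wounded libraries was 4.20 on the log2 scale, with no replicate check, and whether it differed from the WT difference was not tested. Between the wounded groups the log2 fold change, Grhl3-cKO against WT, was -0.19 ± 0.42 (SE), smaller than its error.

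Il20ra encodes a receptor subunit that pairs with IL-20RB. It had 344 and 315 counts in the WT unwounded libraries, 253 and 361 in the WT wounded libraries, 622 in the Grhl3-cKO unwounded library, and 584 and 727 in the Grhl3-cKO wounded libraries. The CPM were 22.2 and 18.7, 15.2 and 23.4, 46.1, and 38.4 and 50.9 in that order. All 3 libraries labelled Grhl3-cKO were higher than all 4 WT libraries, whether or not the mice had been wounded. Among wounded libraries the means were 44.6 ± 8.87 CPM (SD, n = 2) for Grhl3-cKO and 19.3 ± 5.81 CPM (SD, n = 2) for WT, a log2 fold change of 1.23 ± 0.27 (SE). The wound difference was small beside its error in WT, with a log2 fold change of -0.06 ± 0.27 (SE), and was -0.07 on the log2 scale in the libraries labelled Grhl3-cKO. An antisense gene, Gm33332, is annotated inside Il20ra, and without strand information reads of the pair cannot be told apart.

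Il20rb, the subunit shared by both IL-24 receptors, had 98.5 and 127 CPM in the WT unwounded libraries, 70.1 and 119.9 in the WT wounded libraries, 114 in the Grhl3-cKO unwounded library, and 93.6 and 144 in the Grhl3-cKO wounded libraries. The groups overlapped, and replicate number 2 exceeded replicate number 1 in each pair. Il22ra1, the other partner of IL-20RB and the receptor of IL-22, had 15.0 and 22.1 CPM in the WT unwounded libraries, 21.2 and 27.2 in the WT wounded libraries, 24.5 in the Grhl3-cKO unwounded library, and 31.7 and 35.5 in the Grhl3-cKO wounded libraries. The Grhl3-cKO wounded libraries were the highest and did not overlap WT wounded libraries, with a log2 fold change of 0.49 ± 0.27 (SE) between them. Il10rb, a subunit that pairs with IL-22RA1 for IL-22 and with other receptors of the family, stayed between 6.00 and 8.43 CPM, with a highest-to-lowest ratio of 1.40. It was the narrowest range among the 9 genes.

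Osmr, the oncostatin M receptor subunit, had 89.8 and 70.6 CPM in the WT unwounded libraries, 136 and 80.6 in the WT wounded libraries, 87.1 in the Grhl3-cKO unwounded library, and 95.05 and 110.4 in the Grhl3-cKO wounded libraries. The WT groups overlapped, since the high mean of the wounded pair came from replicate 1. The WT wound difference was 0.46 ± 0.23 (log2 fold change, SE), and it was 0.03 without WT wounded replicate 1. Il6st, which encodes gp130, had 195 and 158 CPM in the WT unwounded libraries, 233 and 197 in the WT wounded libraries, 204 in the Grhl3-cKO unwounded library, and 227 and 188 in the Grhl3-cKO wounded libraries. The WT wounded libraries lay just above the WT unwounded ones, and the Grhl3-cKO wounded libraries lay on either side of the unwounded one.

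Stat3 had 8750 and 7975 counts in the WT unwounded libraries, 10460 and 7802 in the WT wounded libraries, 5614 in the Grhl3-cKO unwounded library, and 8536 and 6687 in the Grhl3-cKO wounded libraries. As CPM these were 565 and 474, 628 and 506, 416, and 561 and 468. The WT groups overlapped, the Grhl3-cKO unwounded library was the lowest of all 7, and replicate number 1 was the higher in every pair. The log2 fold changes were 0.15 ± 0.17 (SE) after wounding in WT and -0.11 ± 0.17 (SE) between Grhl3-cKO and WT wounded libraries. The 3′ end of Stat3 overlaps that of Stat5a, on the opposite strand, so reads there are of uncertain origin.

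Socs3, a target gene and inhibitor of STAT3, had 10185 and 9191 counts in the WT unwounded libraries, 7999 and 8011 in the WT wounded libraries, 10933 in the Grhl3-cKO unwounded library, and 8648 and 8634 in the Grhl3-cKO wounded libraries. The CPM were 658 and 547, 480.3 and 519.6, 810.0, and 568 and 605 in that order. Within each genotype the wounded libraries were lower than the unwounded ones, while over both genotypes the wounded and unwounded libraries overlapped. The log2 fold change was -0.24 ± 0.16 (SE) in WT, and the Grhl3-cKO wounded libraries stood at a mean log2 difference of -0.48 from the unwounded one. The Grhl3-cKO wounded libraries were higher than the WT wounded libraries without overlap, with a log2 fold change of 0.25 ± 0.16 (SE). In both genotypes the log2 value after wounding was above 0 for Il24 and below 0 for Socs3. For Grhl3-cKO this rests on the lone unwounded library, and a link between Il24 and Socs3 was not tested.

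**Figure D1:**
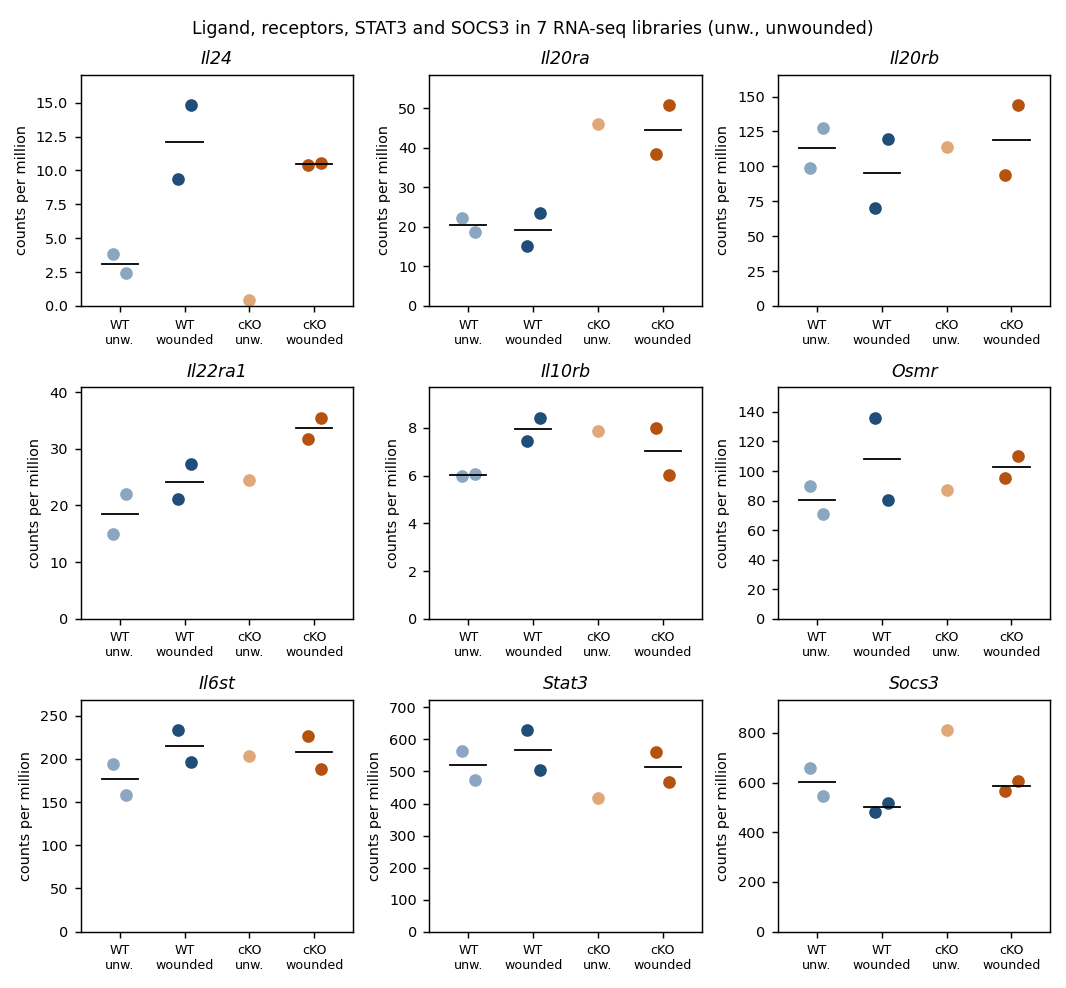
CPM (vertical axis, from 0) of the 9 genes in 7 RNA-seq libraries, with 1 point per library and a line at the mean of each group of 2. Il24 is higher in the 4 wounded than in the 3 unwounded libraries, Il20ra is higher in the 3 libraries labelled Grhl3-cKO than in the 4 WT libraries, and Socs3 is highest, at 810.0 CPM, in the Grhl3-cKO unwounded library.

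Across the design, 14045 genes passed the filter on low counts and were tested with edgeR's quasi-likelihood test, all 9 of the axis among them, with p-values adjusted over all genes by Benjamini-Hochberg. In WT, wounded against unwounded, 0 of the 9 had an adjusted p under 0.05, against 0.0285% of all genes tested. At an unadjusted P under 0.05 it was 1 of 9, Il24, against 4.84% of all genes. DESeq2 called 0 of 9, beside 24 of 14045 genes. Between Grhl3-cKO and WT wounded libraries 0 of the 9 passed, against 0% of all genes, and 1, Il20ra, had an unadjusted P under 0.05, against 4.04% of all genes. DESeq2 again called 0 of 9 there, beside 3 of 14045 genes.

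For all wounded against all unwounded libraries, with genotype as a term, 0 of the 9 passed in edgeR, against 0.0356% of all genes, and Il24 and Socs3 had an unadjusted P under 0.05, against 6.61%. Il24 had a log2 fold change of 2.69 ± 0.49 (SE) and Socs3 of -0.34 ± 0.12 (SE) in that fit. DESeq2 called 1 of the 9, Il24, beside 126 of 14045 genes. So did edgeR without WT unwounded replicate 2, beside 56 of 13867 genes, and without WT wounded replicate 1, beside 119 of 13814 genes. Without the Grhl3-cKO unwounded library the Il24 value was 1.98, and without WT unwounded replicate 1 and WT wounded replicate 1 it was 3.13 and 3.14. Over the fits without 1 library Socs3 ranged from -0.43 to -0.24, with -0.24 ± 0.15 (SE) without the Grhl3-cKO unwounded library. In the fit without the Grhl3-cKO unwounded library, 1 of the 9 had an unadjusted P under 0.05, beside 656 of 13071 genes. A 2-fold rule asked that both Grhl3-cKO wounded libraries lie 2-fold or more to 1 side of the unwounded one, and 1 of the 9 met it, Il24, against 9.58% of all genes in either direction and 5.69% of all genes for a higher level after wounding. Nothing is read from these counts, since the genes were selected on the same libraries.

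Counted by groups that do not overlap, 4 of the 9 separated WT wounded from WT unwounded libraries, with Il24, Il10rb and Il6st higher and Socs3 lower, against 33.5% of all genes tested. Il20ra, Il22ra1 and Socs3, 3 of the 9, were higher in both Grhl3-cKO wounded libraries than in both WT wounded libraries. Of all 14045 genes tested, 1932 were higher and 2412 lower in this way, 30.9% in either direction. Of the 9, 5 lay outside the Grhl3-cKO unwounded value in both wounded libraries, with Il24, Il22ra1, Osmr and Stat3 higher and Socs3 lower, against 68.8% of all genes. Il20ra alone separated all libraries labelled Grhl3-cKO from all WT libraries, against 7.99% of all genes (without the Grhl3-cKO unwounded library Il22ra1 did so too, 2 of the 9, as did 1988 of 14045 genes), and Il24 alone separated all wounded from all unwounded libraries, against 6.44%. The median log2 fold change over the 9 genes was 0.31 after wounding in WT and -0.02 between the wounded groups, and over all genes tested it was 0.00 and -0.01.

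**Figure D2:**
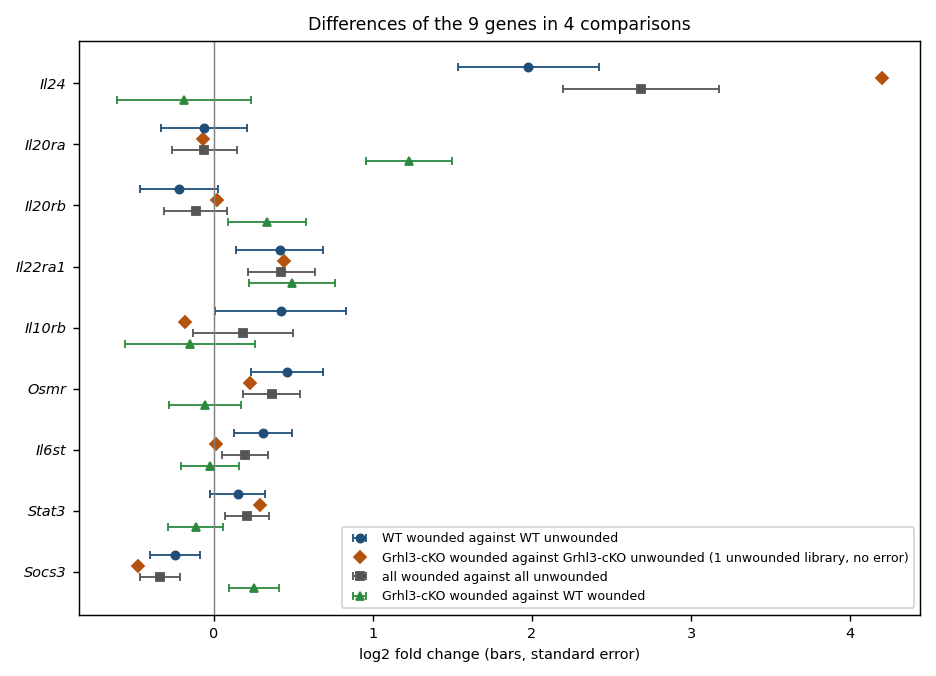
Log2 fold change (horizontal axis) of each of the 9 genes in 4 comparisons, with bars of 1 standard error where the fit gives them. Il24 stands to the right for wounding, at 1.98 in WT and 4.20 in the libraries labelled Grhl3-cKO, Il20ra stands at 1.23 for Grhl3-cKO against WT after wounding, and Socs3 is left of 0 for wounding.

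Levels of different genes were compared per kilobase of merged exon. By the median over 7 libraries Socs3 came first with 223 CPM per kb, then Stat3 with 81.25, Il20rb with 40.7, Il6st with 17.9, Osmr with 16.4, Il20ra with 11.1, Il22ra1 with 9.55, Il24 with 6.76 and Il10rb with 4.025. The ranges of Socs3, Stat3 and Il20rb did not overlap each other or those below, with 188 to 317, 66.8 to 101 and 25.1 to 51.6 CPM per kb. Below them neighbours in the order overlapped. Il24 spanned 0.321 to 10.7 CPM per kb, the widest ratio among the 9 genes, so its place in the order differed between wounded and unwounded libraries. The level of Il20ra exceeded that of Il22ra1 in 6 of 7 libraries and fell short of it in WT wounded replicate 1.

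The rest of the pathway was followed through 77 other genes in 9 lists, chosen with earlier results of these data known. Nothing is therefore read from their shares beside those of all genes. Of the 77 genes, 68 passed the filter on low counts, and Flg had no entry in the count tables. None had an adjusted p under 0.05 in edgeR in any of the 3 tested comparisons, and DESeq2 called 1, 1 and 7 of them for WT wounding, Grhl3-cKO against WT after wounding, and all wounded against all unwounded, beside 24, 3 and 126 of all 14045 genes. With no filter on low counts edgeR called 5, 3 and 12, beside 96, 51 and 305 of 16280 genes. For WT wounding it called 2 without WT wounded replicate 1, beside 29 of 13814 genes, and 1 without WT wounded replicate 2, beside 8 of 13883. For the wounded groups it called 2 without WT wounded replicate 2, beside 21 of 13883 genes. For all wounded libraries it called 2 without WT unwounded replicate 2 and 6 without WT wounded replicate 1, beside 56 of 13867 and 119 of 13814 genes. At an unadjusted P under 0.05, 6 were higher and 5 lower after wounding in WT, 16.2% of the 68 beside 4.84% of all genes. In that comparison the 6 were Cntfr, Timp1, Il4ra, Krt6a, Krt6b and Krt16, and the 5 were Il31ra, Ptpn6, Lcn2, Krt1 and Krt10. Between the wounded groups 5 were higher and 1 lower in Grhl3-cKO, 8.82% of the 68 beside 4.04% of all genes, the 5 being Il22ra2, Il6ra, Fos, Krt1 and Krt10 and the 1 Krt17. That balance depended on single libraries, with 2 higher and 5 lower without WT wounded replicate 1, 7 and 4 without WT wounded replicate 2, 3 and 6 without Grhl3-cKO wounded replicate 1, and 6 and 3 without Grhl3-cKO wounded replicate 2. For WT wounding it was 6 and 3 without WT unwounded replicate 1, 8 and 1 without WT unwounded replicate 2, 6 and 2 without WT wounded replicate 1, and 4 and 4 without WT wounded replicate 2. Over both genotypes 11 were higher after wounding, with Bcl3, Vegfa, Icam1, Hif1a and S100a8 beside the 6 named for WT, and 7 were lower, namely Il22ra2, Lifr, Il31ra, Ptpn6, Fos, Krt1 and Krt10, 26.5% of the 68 beside 6.61% of all genes. Without the Grhl3-cKO unwounded library these were 6 and 5, and without WT wounded replicate 1 they were 13 and 4. By the 2-fold rule 10 were higher and 4 lower in Grhl3-cKO wounded libraries than in the unwounded one, 20.6% of the 68 beside 9.58% of all genes. The 10 were Il19, Cntfr, Vegfa, Timp1, Lcn2, S100a8, S100a9, Krt6a, Krt6b and Lor, and the 4 were Il22ra2, Il11, Il31ra and Socs2. Without Grhl3-cKO wounded replicate 2 the rule gave 17 and 6, and with at least 10 counts asked of each library it gave 5 and 3.

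Among the other ligands of the family, Il19 had 0 and 32 counts in the WT unwounded libraries, 25 and 18 in the WT wounded libraries, 0 in the Grhl3-cKO unwounded library, and 20 and 21 in the Grhl3-cKO wounded libraries. Il20 had at most 12 counts and Il10 at most 19 in any library, and Il22 had 0 in all 7. In the Grhl3-cKO unwounded library, where Il24 was lowest, Il10 had 9 counts. Il22ra2, the gene of a soluble decoy receptor for IL-22, had 293 and 302 counts in the WT unwounded libraries, 209 and 219 in the WT wounded libraries, 1118 in the Grhl3-cKO unwounded library, and 335 and 296 in the Grhl3-cKO wounded libraries. The unwounded Grhl3-cKO library stood apart from all 6 others for that gene.

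Among gp130 ligands Clcf1, a cytokine of the ciliary neurotrophic factor group, had 20.4 to 28.1 CPM, and Osm, the ligand of the oncostatin M receptor, had 0 counts in every library. Lifr, the leukaemia inhibitory factor receptor, had 147 to 344 CPM, with the value of 344 in the Grhl3-cKO unwounded library. Cntfr, the ciliary neurotrophic factor receptor, had a WT wound log2 fold change of 1.23 ± 0.45 (SE), from 6.78 and 8.81 CPM unwounded to 27.6 and 8.43 CPM wounded, and the WT groups overlapped. Il31ra, a partner of the oncostatin M receptor subunit for IL-31, had a log2 fold change of -0.79 ± 0.33 (SE) in WT and -1.09 ± 0.26 (SE) over both genotypes. Jak1, a Janus kinase, had 327 to 373 CPM, and none of the 4 kinases or of the other STAT genes tested had an unadjusted P under 0.05 in any of the 3 comparisons.

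Fos, of the STAT3 target list, had 1436 to 3287 CPM, with its highest value in the Grhl3-cKO unwounded library and a log2 fold change of 0.37 ± 0.14 (SE) between Grhl3-cKO and WT wounded libraries. Il4ra, a cytokine receptor gene of the same list, had 125 and 108 CPM in the WT unwounded libraries, 173 and 236 in the WT wounded libraries, 81.3 in the Grhl3-cKO unwounded library, and 166 and 141 in the Grhl3-cKO wounded libraries. All 4 wounded libraries were above all 3 unwounded ones for Il4ra. Timp1, an inhibitor of matrix metalloproteinases, had 0 counts in all 3 unwounded libraries and 14, 12, 7 and 9 in the wounded libraries, WT first.

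Krt1, a keratin of differentiating keratinocytes, had 1497 to 3980 CPM, lowest in WT wounded replicate 1 and highest in the Grhl3-cKO unwounded library. The log2 fold changes of Krt1 and Krt10 were -0.66 ± 0.20 and -0.45 ± 0.16 (SE) after wounding in WT, and 0.77 ± 0.20 and 0.87 ± 0.16 (SE) between Grhl3-cKO and WT wounded libraries. Krt6b, a keratin of wounded and activated epidermis, had 39.4 and 266 CPM in the WT unwounded libraries, 233 and 1075 in the WT wounded libraries, 4.15 in the Grhl3-cKO unwounded library, and 645 and 296 in the Grhl3-cKO wounded libraries. For that gene WT replicate number 2 was the higher of each pair and the WT groups overlapped. S100a9, an antimicrobial alarmin subunit, had 121 and 125 counts in the WT unwounded libraries, 80 and 287 in the WT wounded libraries, 0 in the Grhl3-cKO unwounded library, and 121 and 63 in the Grhl3-cKO wounded libraries. Defb4 had 0 counts in all libraries.

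The genes most alike in pattern were named by Pearson's r of log2 CPM over the 7 libraries, among 11080 genes, as a description of values that share the same libraries. For Il24 they were Myo5a (r = 0.978), Trp53rka (r = 0.966) and Prss12 (r = 0.965). Prss12 had 11.4 and 12.5 CPM in the WT unwounded libraries, 16.6 and 25.9 in the WT wounded libraries, 5.48 in the Grhl3-cKO unwounded library, and 23.9 and 18.7 in the Grhl3-cKO wounded libraries, lowest where Il24 was lowest. For Il20ra they were Celf4 (r = 0.973), Pigp (r = 0.967) and Extl1 (r = 0.964), and for Socs3 they were Btbd2 (r = 0.99), Trim44 (r = 0.979) and Cdh13 (r = 0.977).

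The sorted cells carried the markers of basal keratinocytes, with Krt14 at 12190 to 19442 CPM and a sum of the 6 basal markers of at least 30890 CPM in every library. The 6 suprabasal markers, Krt1 with the highest mean, summed to 6235 and 6888 CPM in the WT unwounded libraries, 3637 and 5352 in the WT wounded libraries, 9466 in the Grhl3-cKO unwounded library, and 6704 and 8339.5 in the Grhl3-cKO wounded libraries. They were higher in libraries labelled Grhl3-cKO than in WT libraries after wounding, as Il20ra, Il22ra1 and Socs3 were. The 6 hair follicle markers, led by Krt15, summed to 5751 and 5105 CPM, 4485 and 3604, 6659, and 3638 and 4495 in the same order, and were lower in all wounded than in all unwounded libraries.

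The 6 endothelial markers, Flt1 among them, summed to 1.87 and 2.38 CPM in the WT unwounded libraries, 26.2 and 12.7 in the WT wounded libraries, 0.815 in the Grhl3-cKO unwounded library, and 10.05 and 8.40 in the Grhl3-cKO wounded libraries. The 8 leukocyte markers, Cd68 with the highest mean and Cd3e at 0 in all libraries, summed to 3.94 and 2.08 CPM, 5.28 and 6.75, 2.07, and 4.47 and 7.003 in the same order. The 4 melanocyte markers, Dct with the highest mean, summed to 2.52 and 0.952 CPM, 7.15 and 3.89, 1.11, and 5.78 and 5.81. The sums of these 3 lists, like Il24, were higher in all 4 wounded than in all 3 unwounded libraries. The 4 Langerhans cell markers summed to 9.62 to 50.1 CPM with the highest mean for Cd74, and the 6 fibroblast markers to 11.04 to 46.6 CPM with the highest mean for Col3a1. Of 4 erythroid markers Hba-a1, Hbb-bs and Hbb-bt were at 0 in all libraries, and Alas2 made up their sum of at most 0.910 CPM. At an unadjusted P under 0.05 in WT wounding, 4 of 6 endothelial, 2 of 3 Langerhans cell, 1 of 5 leukocyte, 1 of 5 fibroblast and 1 of 3 melanocyte markers tested were higher, 3 of 6 suprabasal and 4 of 6 hair follicle markers were lower, and 0 of 6 basal and 0 of 1 erythroid markers differed. Between the wounded groups 4 of 6 suprabasal markers were higher in Grhl3-cKO, 1 of 6 endothelial markers, Flt1, was lower, and none of the other lists held such a gene. None of these markers had an adjusted p under 0.05 in edgeR in either comparison. The part of these cell types in the levels of the 9 genes was not tested, and in bulk libraries fewer cells of a type and less RNA per cell cannot be told apart.

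Open chromatin near the 9 genes was read from the 4 deposited peak lists, of 10769 peaks for WT unwounded, 36872 for WT wounded, 29364 for Grhl3-cKO unwounded and 22474 for Grhl3-cKO wounded cells. A gene had a peak when at least 1 base of a listed peak lay in it or within 5 kb of it. By that rule 4 of the 9 genes had a peak in WT unwounded cells, against 34.8% of 21897 protein-coding genes, and all 9 in WT wounded cells, against 62.3%. The counts were 8 of 9 in Grhl3-cKO unwounded cells, against 58.5%, and 5 of 9 in Grhl3-cKO wounded cells, against 49.3%. Il24, Il20rb, Osmr and Il6st had a peak in all 4 lists by that rule. The share of all protein-coding genes with a peak in all 4 lists was not counted. When 0.5 of a peak had to lie inside the window, Il24 had none in WT unwounded and Grhl3-cKO wounded cells. With each list limited to its 10769 strongest peaks by p, 4, 5, 3 and 3 of the 9 genes had a peak, in the same order of conditions, against 34.8%, 31.5%, 32.9% and 31.9% of protein-coding genes, and Osmr had none in either Grhl3-cKO list.

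Upstream of Il24 all 4 lists held a peak at chr1:130892273-130892896 (mm10, merged over the lists), whose near edges stood between 4.82 and 4.95 kb before the gene, so that only the near ends of these peaks lay inside the 5 kb window. The fold enrichment over the local background was 5.87 in WT unwounded, 6.98 in WT wounded, 6.01 in Grhl3-cKO unwounded and 5.10 in Grhl3-cKO wounded cells. A peak inside Il24, intronic in the longer transcript at chr1:130886419-130886830, was listed in WT wounded and Grhl3-cKO unwounded cells, with fold enrichments of 5.57 and 4.64. It was not listed in the other conditions. The RNA of Il24 was higher in wounded than in unwounded WT libraries, and lowest in the Grhl3-cKO unwounded library. A link between the intronic peak and the RNA was not tested. Downstream peaks lay in the neighbouring gene Fcmr.

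Il20ra had a peak over its start at chr10:19712310-19712755 in WT wounded and Grhl3-cKO unwounded cells, with fold enrichments of 4.43 and 3.10. The Grhl3-cKO unwounded list also held an upstream peak at chr10:19711402-19711584, with 3.14. The WT unwounded and Grhl3-cKO wounded lists held no peak of Il20ra. The Grhl3-cKO unwounded peak over the start ranked 28783 of 29364 by p. It was lost at a q of at most 0.01 and at a fold enrichment of at least 4. With lists of equal length Il20ra had no peak in any list. The RNA of Il20ra was high in both conditions labelled Grhl3-cKO. Il22ra1 and Il10rb each had peaks at or just before the gene start in WT wounded and Grhl3-cKO unwounded cells only, the latter in a region that the annotation also gives to Gm21970. At a q of at most 0.01 Il22ra1 had a peak in the Grhl3-cKO unwounded list alone and Il10rb in the WT wounded list alone, and with lists of equal length neither gene had any. Il20rb had 1 peak in WT unwounded, 6 in WT wounded, 6 in Grhl3-cKO unwounded and 5 in Grhl3-cKO wounded cells, and the peak found in all 4 lists was intronic, at chr9:100466705-100467215. Osmr had 1, 6, 5 and 2 peaks in the same order, with an intronic peak at chr15:6849870-6850325 in all lists.

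Il6st had a peak over its gene start at chr13:112463655-112464479 in all 4 lists, with fold enrichments of 4.13 to 5.19. Stat3 had a peak at its start at chr11:100939362-100939935 in WT wounded and Grhl3-cKO unwounded cells, with fold enrichments of 5.40 and 4.13, of which the WT wounded peak alone was left with lists of equal length. Socs3 had a peak over its RefSeq start in the wounded cells of both genotypes, at chr11:117969127-117969462, and in neither unwounded list. The fold enrichments were 4.07 in WT and 4.08 in Grhl3-cKO wounded cells. The gene as annotated for assigning peaks extends further, to chr11:117970047. These peaks ranked 19439 and 15197 by p in their lists, so with lists of equal length Socs3 had no peak in any list. Within 20 kb the Grhl3-cKO unwounded list also held a peak. Its RNA was lower in the wounded than in the unwounded libraries of each genotype. With 1 ATAC-seq library per condition and lists of such different length, none of these differences between lists could be set against replicate error.

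**Figure D3:**
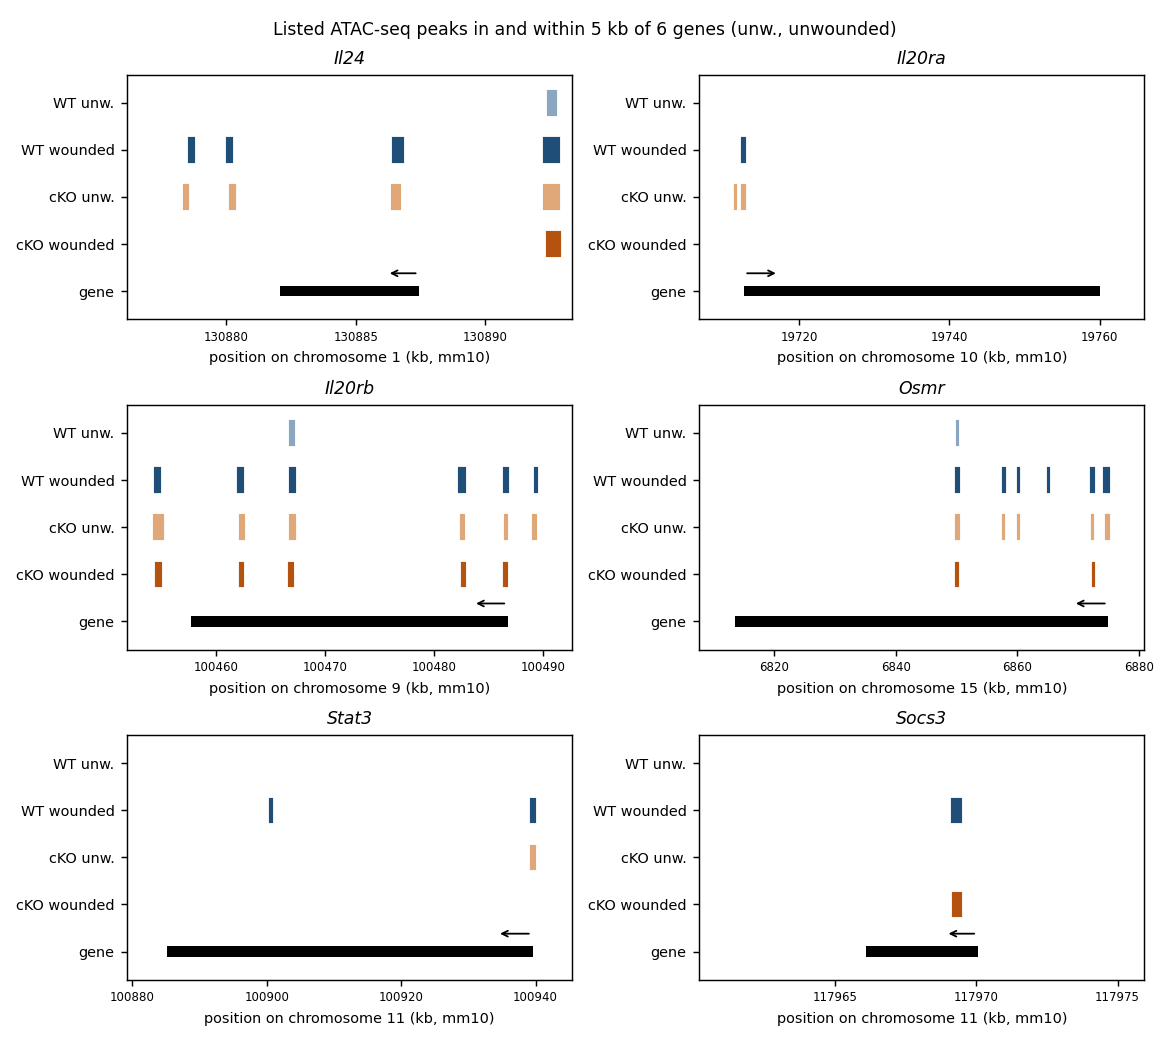
Listed peaks (bars, drawn to scale) in and within 5 kb of 6 of the 9 genes in the 4 ATAC-seq lists, by position in kb on mm10, with the annotated gene in black and an arrow in the direction of transcription. The peaks upstream of Il24 and inside Il20rb and Osmr recur in all 4 lists, and the peak at Socs3 stands in both wounded lists.

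STAT factors bind the palindrome TTCNNNGAA, which reads the same on both strands, and it was looked for in RefSeq promoters (GRCm38.p6, 250 bases before to 50 after the gene start), which the reference table held for 7 of the 9 genes. It was present in 1, Socs3, beside 8.30% of 32851 promoters. The Socs3 promoter is shown because it alone holds the motif and overlaps the wound-listed peak. It is chr11:117969317-117969616 on the minus strand, and the capitals mark the motif, at chr11:117969512-117969520, 154 bases before the RefSeq start and just outside the listed peaks.
Socs3 promoter: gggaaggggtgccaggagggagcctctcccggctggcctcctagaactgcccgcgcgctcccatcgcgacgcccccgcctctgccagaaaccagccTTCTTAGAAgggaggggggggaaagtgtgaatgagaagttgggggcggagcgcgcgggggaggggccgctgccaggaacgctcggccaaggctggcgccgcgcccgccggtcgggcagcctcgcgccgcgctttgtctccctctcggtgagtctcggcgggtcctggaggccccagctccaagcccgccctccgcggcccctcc

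The peaks of Il24, Il20rb and Osmr that recur in all 4 lists and lie outside gene starts are shown as the 300 bases around the middle of the WT wounded peak, plus strand, from the RefSeq genome GRCm38.p6. They were chosen after their values were seen. Searched on both strands were TTCNNNGAA, the GRHL motif AACCGGTT and the AP-1 motif TGANTCA, held by 8.90%, 0.301% and 27.7% of 36870 such windows over all WT wounded peaks. Capitals mark AP-1 motifs, of which the Il24 window at chr1:130892407-130892706 held 2, the Il20rb window at chr9:100466829-100467128 held 1 and the Osmr window at chr15:6849973-6850272 held 2. None of the 3 windows held the STAT or GRHL motif, which says only that these letters are not in these windows. The Il6st peak found in all 4 lists lies over the gene start, and its window at chr13:112463944-112464243 held none of these motifs, AP-1 included.
Il24 upstream peak: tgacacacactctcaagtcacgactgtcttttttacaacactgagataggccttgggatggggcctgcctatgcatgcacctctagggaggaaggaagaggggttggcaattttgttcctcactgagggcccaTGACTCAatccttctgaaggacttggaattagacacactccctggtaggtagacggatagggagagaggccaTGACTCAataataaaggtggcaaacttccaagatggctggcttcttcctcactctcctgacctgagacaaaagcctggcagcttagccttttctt
Il20rb intron peak: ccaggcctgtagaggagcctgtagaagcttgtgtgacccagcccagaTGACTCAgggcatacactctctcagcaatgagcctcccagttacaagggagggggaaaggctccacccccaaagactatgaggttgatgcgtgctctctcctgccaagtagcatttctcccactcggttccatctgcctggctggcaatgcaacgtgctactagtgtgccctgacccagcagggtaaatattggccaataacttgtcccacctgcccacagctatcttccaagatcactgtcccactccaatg
Osmr intron peak: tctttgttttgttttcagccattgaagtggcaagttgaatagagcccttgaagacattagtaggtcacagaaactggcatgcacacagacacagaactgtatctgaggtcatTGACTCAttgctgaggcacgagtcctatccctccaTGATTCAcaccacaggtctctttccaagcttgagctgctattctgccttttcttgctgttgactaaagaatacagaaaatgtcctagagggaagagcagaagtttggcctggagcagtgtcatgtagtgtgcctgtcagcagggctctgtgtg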

How the data were processed

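The authors deposited raw counts per gene symbol for 7 RNA-seq libraries. The methods name Kallisto and mm10, but the closing entries of each table are those of an alignment-based counter, so the program behind the counts is uncertain. The deposited ATAC-seq peak lists (mm10, 1 library per condition, no control library) were called by the authors with MACS2 and give fold enrichment over the local background as a ratio, the -log10 p and -log10 q of each peak, and a display score that was not used. The 9 genes and all gene and marker lists were chosen with earlier results of these data known. Between 4.80% and 6.11% of reads were in entries naming no gene and were left out. A model of 4 groups was fitted in edgeR 4.0.16 (R 4.3.3) with TMM, filterByExpr and two-sided quasi-likelihood tests, adjusted by Benjamini-Hochberg over 14045 genes, and all wounded against all unwounded used genotype as a further term. The biological coefficient of variation was 31.6%. Each standard error was the absolute log2 fold change divided by the square root of the F statistic of its quasi-likelihood test. Log2 CPM for the 2-fold rule and for Pearson's r used a prior count of 2. Peaks were assigned with GENCODE vM21 and sequences read from RefSeq GRCm38.p6 in Python 3.11.15 with pandas 2.3.3. Named genes were the 9, in each of 9 pathway lists the gene with the highest mean CPM, not scaled for length, and those with an unadjusted P under 0.05 or meeting the 2-fold rule, and the 3 genes most like Il24, Il20ra and Socs3; the per-library values of Il4ra, Krt6b, Prss12, Il22ra2, S100a9, Timp1 and the other ligands were picked for display after they were seen. Alternatives were DESeq2 1.42.0, RLE normalization, fits to the 4 compared libraries alone, dropping the filter or asking for 10 counts in each library, replicate number as a term, prior counts of 0.5 and 5, and leaving out each library. For peaks they were a q of at most 0.01, a minimum fold enrichment of 4, shortening all lists to the same length, windows of 0 and 20 kb, and a minimum overlap of 0.5 of the peak. TMM-scaled CPM and leaving out the Grhl3-cKO unwounded library in the counts of groups that do not overlap were added after seeing the data.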

Additional observations from a re-analysis of the deposited data

Results flagged for a closer look

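Among 77 genes, the 9 of the axis and the 68 others of the pathway lists that were tested, 5 had both WT wounded libraries on 1 side of both WT unwounded libraries and both Grhl3-cKO wounded libraries on the opposite side of the Grhl3-cKO unwounded library, and 18 lay on the same side in both genotypes. These were 6.49% and 23.4% of the 77, beside 10.6% and 12.4% of all 14045 genes tested. Nothing is read from these shares, since the lists were chosen with earlier results of these data known. Cish, a SOCS family inhibitor, had a wound log2 fold change of 0.30 in WT and a log2 difference of -0.45 in the libraries labelled Grhl3-cKO. Mcl1, an anti-apoptotic gene, had 0.22 and -0.42. Junb, an AP-1 subunit, had 0.27 and -0.57. Socs4, a SOCS family gene, had -0.37 and 0.33. Lcn2, an antimicrobial siderophore-binding protein, had -0.89 and 2.85, with 4.96 CPM in the Grhl3-cKO unwounded library and 26.8 to 67.4 CPM in the other 6. The difference between genotypes was not tested for any of them, and each rests on the lone Grhl3-cKO unwounded library, whose Xist and Y-linked counts differ from those of the other libraries.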

How the results depend on the processing

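Of 392 log2 values of the 9 genes under the alternatives, 372 moved by less than the spread between replicates and 20 by more. Il24 ranged from 1.59 to 2.34 for WT wounding, Il20ra from 0.94 to 1.59 between the wounded groups, and Socs3 from -0.38 to -0.09 for WT wounding, each with 1 sign throughout. Signs were not kept for Il20ra (-0.42 to 0.22), Il20rb (-0.68 to 0.12) and Stat3 (-0.01 to 0.29) in WT wounding, nor between the wounded groups for Il24 (-0.49 to 0.20), Il20rb (-0.00 to 0.79), Il10rb (-0.40 to 0.07), Osmr (-0.37 to 0.36), Il6st (-0.19 to 0.14) and Stat3 (-0.28 to 0.05), nor for Il20ra and Il20rb over all wounded libraries, nor for Il20ra, Il20rb, Il10rb and Il6st in the libraries labelled Grhl3-cKO. With no filter, 1 of the 9 genes passed for WT wounding (Il24), 1 between the wounded groups (Il20ra) and 1 for all wounded libraries (Il24), where DESeq2 also called 1, and leaving out 1 library gave 0 to 1. Over all genes, WT wounding gave 24 with DESeq2, 96 with no filter, 0 with at least 10 counts in every library, 0 with only the 4 libraries compared, 6 with replicate number as a term, and 0 to 29 without 1 library. Between the wounded groups the counts were 3, 51, 0, 0, 0, and 0 to 21 in that order. All wounded libraries gave 126 with DESeq2, 305 with no filter, 2 with at least 10 counts, 4 with replicate number as a term, and 0 to 119 without 1 library. The replicate number of the Grhl3-cKO unwounded library is uncertain, since its title and its deposited table carry different numbers, and the title was followed. In fits without 1 library a lone library was assumed to vary like the other groups. By the 2-fold rule, at least 10 counts in every library left 460 genes and 0 of the 9, since Il24 had 6 counts in 1 library and was not among the genes left, and a lone wounded library gave 2567 to 2732 genes. In WT unwounded, WT wounded, Grhl3-cKO unwounded and Grhl3-cKO wounded cells, the numbers of the 9 genes with a peak were 4, 5, 3 and 3 (all protein-coding genes 34.8%, 31.5%, 32.9% and 31.9%) with lists of equal length, 4, 8, 5 and 5 (all protein-coding genes 23.9%, 49.6%, 40.7% and 40.2%) with fold enrichment of at least 4, and 4, 8, 6 and 5 (all protein-coding genes 29.9%, 58.1%, 49.4% and 44.8%) at a q of at most 0.01. They were 3, 9, 8 and 4 (all protein-coding genes 34.7%, 62.0%, 58.3% and 49.1%) with 0.5 of a peak inside the window, 3, 8, 8 and 4 (all protein-coding genes 28.9%, 54.8%, 50.8% and 42.6%) within the gene alone, and 4, 9, 9 and 6 (all protein-coding genes 44.7%, 72.5%, 69.0% and 59.6%) within 20 kb. In the alternative added after seeing the data, leaving out the Grhl3-cKO unwounded library, 2 of the 9 separated the genotypes, as did 1988 of 14045 genes. The cause of these differences was not tested. Groups of 1 or 2 libraries limit every comparison, and genotype, sex and wounding cannot be told apart where that library is used.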
